A study of Homo sapiens with 10 samples.

Results

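The families described here are the ERV1 class of human endogenous retroviruses, leaving out HERVH and its long terminal repeats LTR7, LTR7B, LTR7C and LTR7Y. They were taken from the deposited count table as every repeat row whose annotation ends in ERV1 and LTR, which gave 300 families, and removal of those 5 rows left 295 of the 1181 repeat families in the table. LTR7A is not among the names left out and stayed in, with at most 1 count in any library. Of the 295 families 66 are internal regions, which carry the remains of the viral genes, and 229 are long terminal repeats (LTRs), which carry the promoters. In all, 271 had enough counts to be tested, 59 internal and 212 LTR, and the other 24 reached at most 19 counts in a library.

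RNA was sequenced from 10 libraries of 2 human cell lines, 2 libraries in each of 5 groups, which the series describes as biological replicates. The line HT29 comes from a colorectal cancer, and t-hESC is labelled as a line of transformed pluripotent stem cells. Treatment lasted 48 hours: VXN was given at 10 µM to either line, BIX at 1 µM to t-hESC alone, and DMSO, their solvent, to the controls of each line. The titles gave the groups, because the treatment field reads DMSO for all samples. The name BIX commonly denotes a G9a and GLP inhibitor, both of which are histone methyltransferases. The labels leave the code name VXN unexplained, and the series title places both under drug changes of the histone mark H3K9me2.

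An endogenous retrovirus is the remnant of a virus that once entered the germ line, and most copies survive as a solitary LTR after the internal region was lost by recombination. In mammalian cells such copies are held silent by KRAB zinc finger proteins that recruit TRIM28 and the H3K9 methyltransferase SETDB1, by DNA methylation and by other H3K9 methyltransferases, among them G9a and GLP. LTRs of some ERV1 families still work as promoters or enhancers, and LTR12 and HERV9 elements drive chimeric transcripts in several tissues.

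Gene counts per library ran from 13137026 to 24492838. Levels are given as CPM, counts scaled to the TMM-adjusted size of the gene library, so repeats did not set their own scale, and 3 counts, the limit that a count of 0 allows for counting error, stand at 0.123 to 0.220 CPM. Of the 11 pluripotency markers ZFP42 was near 0 in t-hESC, and the summed list stood at 5190 to 5859 CPM there against 13.4 to 19.2 CPM in HT29. The colorectal list summed to 5547 to 7125 CPM in HT29 and 432 to 498 CPM in t-hESC, with CDX1, CDX2, CDH17 and GPA33 at low levels in HT29 too. A family row pools the reads of all copies, so its level cannot be assigned to a locus, and reads of a repeat inside a gene may also have been counted for that gene. Copy number and length differ between families, so levels are compared across libraries and not between families.

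Summed over the 295 families, ERV1 RNA was higher under each treatment than in the matching DMSO libraries. In t-hESC the sum was 1999 and 1989 CPM under DMSO, 2465 and 2597 CPM under BIX, and 2342 and 2354 CPM under VXN. In HT29 it was 1480 and 1508 CPM under DMSO and 2145 and 2136 CPM under VXN. The groups of a line did not overlap, and no test was made of a sum over members. The other 886 repeat families together also stood higher in the treated libraries: their sum was 34468 and 34261 CPM in t-hESC under DMSO, 39799 and 40886 CPM under BIX and 39760 and 39792 CPM under VXN, and in HT29 it went from 43232 and 43452 CPM to 61835 and 61795 CPM. As a share of all repeat counts, ERV1 took 5.48% and 5.49% in t-hESC under DMSO, 5.83% and 5.97% under BIX, and 5.56% and 5.59% under VXN. In HT29 the share was 3.31% and 3.36% under DMSO and 3.35% and 3.34% under VXN, so these 2 groups overlapped.

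**Figure D1:**
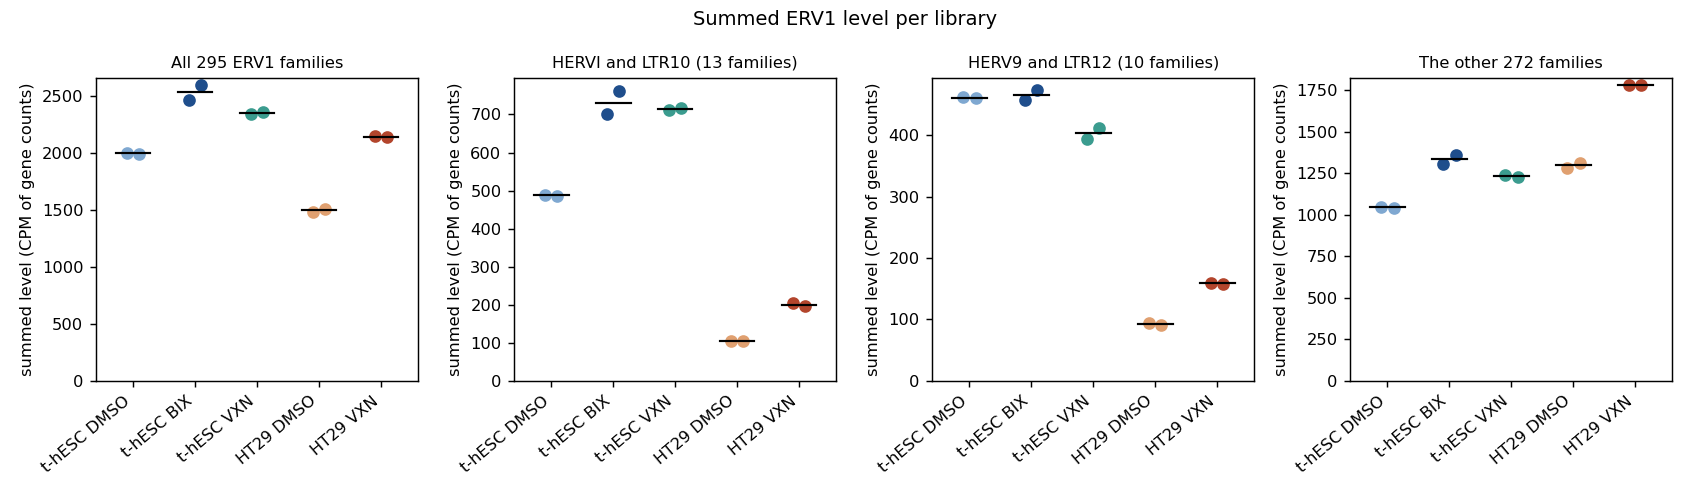
Summed level of ERV1 families in CPM of gene counts, on linear axes that start at 0, for all 295 families, for the HERVI and LTR10 list, for the HERV9 and LTR12 list and for the other 272 families. Each point is 1 library and each line the mean of 2; HERVI with LTR10 stood near 487 CPM in t-hESC under DMSO and above 700 CPM under BIX and VXN, while HERV9 with LTR12 stood no higher in t-hESC under VXN than under DMSO.

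A few families took a large share of the ERV1 reads in t-hESC. HERVI-int, LTR12C, HERVIP10B3-int and HERV9NC-int together held 41.0% to 42.6% of the ERV1 sum in each t-hESC library, and 8.12% to 11.3% in each HT29 library. Over all 10 libraries 44 families averaged at least 10 CPM and 81 averaged below 1 CPM.

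HERVI-int, the internal region of HERV-I, had the highest mean level over the 10 libraries, 223 CPM, followed by LTR12C with 213 CPM, which stood above it in t-hESC under DMSO and in HT29. In t-hESC its level was 274 and 274 CPM under DMSO, 393 and 438 CPM under BIX, and 415 and 417 CPM under VXN. In HT29 it was 2.43 and 2.30 CPM under DMSO and 7.47 and 6.63 CPM under VXN. Every treated library stood above the DMSO libraries of its line, and every t-hESC library stood above every HT29 library. The log2 fold change was 0.60 ± 0.035 (SE, n = 2 against 2) for BIX and 0.60 ± 0.035 for VXN in t-hESC, with edgeR adjusted p-values of 1.18e-21 and 1.43e-22. These 2 comparisons share the DMSO libraries. In HT29 VXN changed it by 1.58 ± 0.16 (edgeR adjusted p = 1.43e-13), from a level that was 6.85 ± 0.073 log2 units below that of t-hESC under DMSO. HERVI-int alone made up 26.4% of the summed ERV1 difference between BIX and DMSO, and 40.1% of that between VXN and DMSO in t-hESC.

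BIX in t-hESC was followed by higher levels of 69 of the 271 tested ERV1 families and lower levels of 0 (edgeR, adjusted p under 0.05). That is 25.5% of the families, beside 23.4% of all 23511 genes and repeat families called in either direction and 11.7% called higher. The 4 families with the most extreme rises among those with at least 4 CPM were PABL_B, PABL_B-int, MER67D and HERV4_I-int. At an unadjusted p under 0.05 the counts were 96 higher and 1 lower, and DESeq2 called 39 higher and 0 lower. Without t-hESC DMSO replicate 2 the count was 45. The median log2 fold change over ERV1 was 0.32, against 0.01 over all tested rows and 0.22 over the other 745 tested repeat families, of which 228 were higher and 4 lower. Medians in the other classes were 0.32 for ERVK, 0.24 for ERVL, 0.26 for L1 and 0.14 for Alu. Scaled by repeat counts instead of gene counts, which put the median gene at −0.22, 32 ERV1 families were higher and 8 lower. The deposited table of the authors called 7 ERV1 families higher under BIX and 0 lower, out of 130 with an adjusted p, and all 7 were called higher here.

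Internal regions and LTRs both moved. Of the 59 tested internal regions 24 rose under BIX (40.7%), with a median of 0.53. Of the 212 LTR families 45 rose (21.2%), with a median of 0.29. Over all tested rows 11.7% were called higher. PABL_B-int was at 18.2 and 17.4 CPM under DMSO and at 35.7 and 39.6 CPM under BIX in t-hESC. This was a log2 fold change of 1.08 ± 0.076 (edgeR adjusted p = 4.66e-18), with no overlap between the groups. PABL_B, the LTR of the same element, went from 3.02 and 2.96 CPM to 6.74 and 6.67 CPM, a change of 1.16 ± 0.17 (edgeR adjusted p = 1.12e-07). Its groups did not overlap either, and neither did those of 13260 of all 23511 tested rows. HERV4_I-int was at 9.66 and 8.52 CPM under DMSO and at 15.4 and 19.2 CPM under BIX, a change of 0.92 ± 0.11 (edgeR adjusted p = 3.61e-10). HERVS71-int, the internal region paired with LTR6, was at 3.07 and 2.92 CPM under DMSO and at 5.42 and 4.62 CPM under BIX, and its call was lost without t-hESC BIX replicate 1 (edgeR adjusted p = 0.00123 with it, 0.0571 without it).

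Under BIX 25.5% of all tested ERV1 families and 11.7% of all tested rows were called higher. Among the sub-family lists HERVI with LTR10 had 8 of 13 members higher under BIX, with a median of 0.52. LTR10B1, one of its LTRs, was at 17.0 and 20.1 CPM under DMSO, 30.7 and 30.2 CPM under BIX, and 33.2 and 29.7 CPM under VXN. LTR10B2 was at 13.5 and 16.8 CPM, 25 and 26.5 CPM, and 23.7 and 24.2 CPM in the same order. Neither LTR overlapped with DMSO in either treatment. The same held for 13260 of all 23511 tested rows under BIX and 14182 under VXN. HERVIP10B3-int, an internal region of the same group, was at 142 and 137 CPM under DMSO and rose to 192 and 209 CPM under BIX and 183 and 191 CPM under VXN. In the list of MER4 families 6 of 13 rose under BIX, in MER41 4 of 7, in MER61 3 of 7, in HUERS-P with LTR1, LTR8 and LTR9 8 of 24, and in MER57 1 of 12. HERV17 and LTR17, the family of the envelope gene syncytin-1, were both called higher, at 0.58 ± 0.14 and 0.43 ± 0.11, but both calls were lost when scaled by repeat counts, and that of HERV17-int also without t-hESC DMSO replicate 1 or t-hESC BIX replicate 1 (edgeR adjusted p of up to 0.107 for HERV17-int and 0.147 for LTR17 over the settings tried).

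In HERV9 with LTR12 0 of 10 families were called under BIX in either direction, beside 25.5% of all tested ERV1 families. LTR12C, an LTR, was at 316 and 312 CPM under DMSO and 310 and 316 CPM under BIX. HERV9NC-int was at 120 and 119 CPM under DMSO and 117 and 126 CPM under BIX. The DMSO and BIX values of both families overlapped. The interval of the BIX change ran from −0.07 to 0.06 for LTR12C and from −0.07 to 0.11 for HERV9NC-int (95%, log2 units). On the scale of repeat counts the changes were −0.24 and −0.21, and both families were called lower (edgeR adjusted p = 1.20e-06 and 0.000322).

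**Figure D2:**
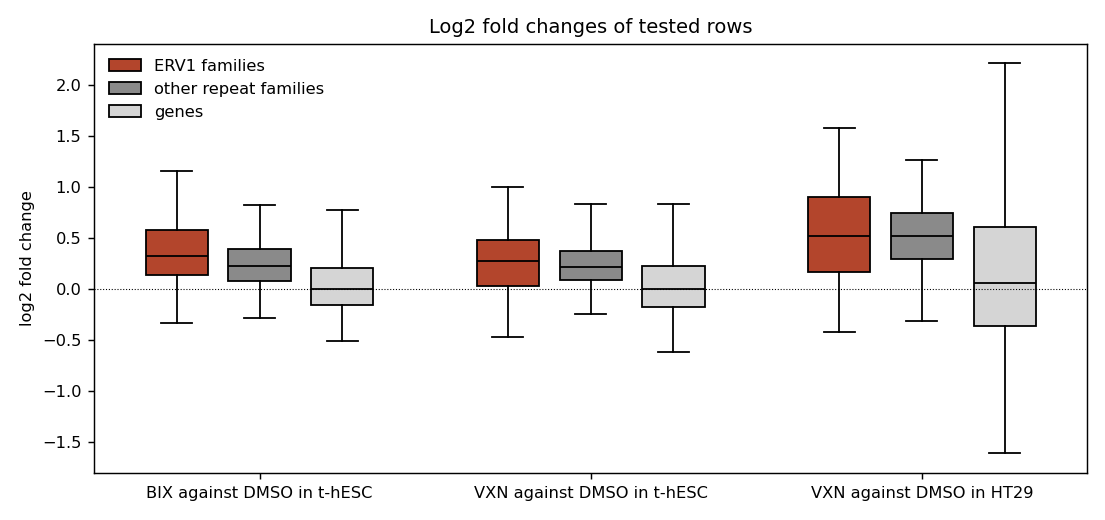
Log2 fold changes of the tested ERV1 families (271), the other repeat families (745) and genes (22495) in 3 treatment comparisons. Boxes span the 25th to the 75th percentile with the median as a line, and whiskers reach the 5th and the 95th percentile; ERV1 medians were 0.32, 0.27 and 0.52, and those of the other repeats 0.22, 0.21 and 0.52.

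VXN in t-hESC was followed by higher levels of 57 ERV1 families and lower levels of 4, beside 29% of all tested rows called in either direction, 15.1% higher and 14% lower (edgeR, adjusted p under 0.05). DESeq2 called 28 higher and 2 lower, and without t-hESC DMSO replicate 2 the edgeR count was 40. The ERV1 median was 0.27, against 0.21 for the other repeat families, of which 238 were higher and 6 lower. Scaled by repeat counts, with the median gene at −0.20, 28 ERV1 families were higher and 15 lower. Of the internal regions 22 rose and 1 fell, and of the LTR families 35 rose and 3 fell. The authors' deposited table called 5 ERV1 families higher and 0 lower, and all 5 were called higher here.

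The rises under VXN included PABL_B-int, at 30.3 and 29.9 CPM, and HERV4_I-int, at 16.2 and 17.5 CPM, both above their DMSO libraries. MER51-int, the internal region of the MER51 families, was at 4.61 and 4.52 CPM under DMSO, 5.04 and 5.28 CPM under BIX, and 8.48 and 7.72 CPM under VXN. Its change under VXN was 0.83 ± 0.14 (edgeR adjusted p = 4.44e-06) and its change under BIX 0.18 ± 0.16 (edgeR adjusted p = 0.509). MER31B was at 3.35 and 2.96 CPM under DMSO and 5.62 and 6.48 CPM under VXN, a rise of 0.95 ± 0.17 (edgeR adjusted p = 9.68e-06). HERVI with LTR10 had 7 of 13 members higher and 0 lower. HUERS-P with LTR1, LTR8 and LTR9 had 2 of 24 higher and MER41 2 of 7. Over all tested ERV1 families 21% were higher, and over all tested rows 15.1%.

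The 4 families that fell under VXN in t-hESC were HERV9NC-int, LTR12C, MER51E and MER4D1. HERV9NC-int went from 120 and 119 CPM to 86.4 and 95.1 CPM, and fell by 0.40 ± 0.045 on the log2 scale (edgeR adjusted p = 1.04e-10). LTR12C went from 316 and 312 CPM to 277 and 286 CPM, and fell by 0.16 ± 0.033 (edgeR adjusted p = 0.000113). Neither overlapped with DMSO, as was so for 14182 of all 23511 tested rows. MER4D1 was at 28.8 and 29.8 CPM under DMSO and 26.2 and 25.1 CPM under VXN, and MER51E at 10.4 and 9.69 CPM and 8.72 and 7.05 CPM. Their falls had edgeR adjusted p-values of 0.0311 and 0.0287. With DESeq2 or without t-hESC VXN replicate 2 neither call held, with adjusted p-values of up to 0.194 for MER4D1 and 0.403 for MER51E over the settings tried, and MER4D1 also lost its call with no count filter or without t-hESC DMSO replicate 2, and MER51E without t-hESC DMSO replicate 1. Within the HERV9 and LTR12 list 2 of 10 fell and 1, HERV9N-int, rose, and that rise was lost without t-hESC DMSO replicate 2 (edgeR adjusted p = 0.195).

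The 2 treatments of t-hESC differed in dose, 10 µM of VXN and 1 µM of BIX. Between them 4 ERV1 families were higher and 18 lower under VXN (edgeR, adjusted p under 0.05). That is 8.12% of the tested ERV1 families, below the 21.9% of all tested rows called, 11.1% higher and 10.8% lower. MER4D1 was at 40.4 and 41.8 CPM under BIX against 26.2 and 25.1 CPM under VXN, a difference of −0.68 ± 0.070 (edgeR adjusted p = 4.99e-12). MER41C, MER41-int, LTR8, HUERS-P1-int and MER52C were called higher under BIX than under DMSO, not called under VXN against DMSO, and lower under VXN than under BIX. For example, LTR8 was at 27.7 and 28.3 CPM under DMSO, 37.2 and 39.4 CPM under BIX, and 28 and 29 CPM under VXN. The BIX libraries enter both the call of BIX against DMSO and that of VXN against BIX, so these calls are not independent. For HERVI-int the difference between VXN and BIX was 0.00 ± 0.034 (edgeR adjusted p = 0.978, 95% interval −0.07 to 0.07).

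The summed levels of cell type marker lists also changed in t-hESC. The fibroblast list summed to 664 and 663 CPM under DMSO, 828 and 787 CPM under BIX, and 934 and 933 CPM under VXN, most of it THY1, while DCN and LUM were near 0 in all t-hESC groups. Under BIX 3 of its 5 tested members were called higher and 0 lower, with a median log2 change of 0.36. Under VXN 1 of its 5 tested members was called higher, THY1, and 1 lower, POSTN, with a median log2 change of −0.07. Over all tested rows 11.7% were higher and 11.7% lower under BIX, and 15.1% higher and 14% lower under VXN. The pluripotency list summed to 5859 and 5763 CPM under DMSO, 5786 and 5699 CPM under BIX, and 5211 and 5190 CPM under VXN. Of its 10 tested members 4 were higher and 2 lower under BIX, and 1 was higher and 5 lower under VXN. The part of either list in the ERV1 changes was not tested, and fewer cells of a type cannot be told apart from less RNA per cell in bulk libraries.

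VXN in HT29 was followed by higher levels of 147 ERV1 families and lower levels of 14. Called rows made up 60.5% of all tested rows in this comparison, 34.5% higher and 26% lower (edgeR, adjusted p under 0.05). The ERV1 median was 0.52, and that of all tested rows 0.08. The other repeat families had the same median of 0.52, with 541 higher and 28 lower of 745. Scaled by repeat counts, which put the median gene at −0.37, 65 ERV1 families were higher and 49 lower, around a median of 0.03. The authors' deposited table called 61 ERV1 families higher and 7 lower, of which 67 had the same call here. Cell type markers moved in the same libraries. The colorectal list went from 7062 and 7125 CPM under DMSO to 5562 and 5547 CPM under VXN, with 4 of 9 tested members lower, KRT8 among them, and 2 higher, KRT20 and CEACAM5. The fibroblast list stood at 4.24 and 3.28 CPM under DMSO and 9.61 and 7.29 CPM under VXN, with 3 of 5 tested members higher. The pluripotency list was also low, at 14.8 and 13.4 CPM under DMSO and 15.8 and 19.2 CPM under VXN. Of its 10 tested members 4 were higher and 1 lower. The part of these marker lists in the ERV1 changes was not tested.

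MER39B, MER57B1, MER4A and HERVE-int, none of which was called in t-hESC, rose in HT29. MER39B, an LTR family, was at 6.50 and 7.17 CPM under DMSO and 25.3 and 25.2 CPM under VXN, a rise of 1.89 ± 0.092 (edgeR adjusted p = 2.94e-27). MER57B1 went from 2.88 and 2.18 CPM to 13.9 and 11.1 CPM, a rise of 2.31 ± 0.16 (edgeR adjusted p = 1.43e-16). MER4A went from 19.3 and 18.9 CPM to 49.5 and 48.6 CPM, a rise of 1.36 ± 0.066 (edgeR adjusted p = 1.61e-27). HERVE-int, whose LTRs are the LTR2 families, went from 19.2 and 20.7 CPM to 47.2 and 49.0 CPM. In all 4 the VXN libraries stood above the DMSO libraries with no overlap. The groups also did not overlap in 17997 of all 23511 tested rows of this comparison.

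LTR12C, HERV9NC-int and HERVIP10B3-int, with high levels in t-hESC, stood lower in HT29 and rose there under VXN. LTR10B2, also lower in HT29, was not called there, with 7 counts under DMSO and 6 under VXN over both libraries. LTR12C went from 59.4 and 56.3 CPM to 98.9 and 97.5 CPM, a rise of 0.76 ± 0.043 (edgeR adjusted p = 3.03e-24). HERV9NC-int went from 4.82 and 5.29 CPM to 13.2 and 12.1 CPM, a rise of 1.33 ± 0.11 (edgeR adjusted p = 2.75e-16). HERVIP10B3-int went from 58.3 and 58.6 CPM to 123 and 122 CPM, a rise of 1.07 ± 0.044 (edgeR adjusted p = 3.11e-31). By list, 8 of 10 HERV9 and LTR12 families rose and 1, LTR12B, fell, and 7 of 13 HERVI and LTR10 families rose and 1 fell. In MER4 11 of 13 families rose, in MER41 5 of 7, and in MER61 4 of 7, where 1 fell. Of the HUERS-P, LTR1, LTR8 and LTR9 families 13 of 24 rose and 1 fell. Among all tested ERV1 families 54.2% were called higher, and among all tested rows 34.5%. LTR12B, at 5.76 and 5.97 CPM under DMSO and 4.63 and 4.2 CPM under VXN, lost its call with DESeq2 and without HT29 DMSO replicate 2 or HT29 VXN replicate 2 (edgeR adjusted p = 0.0137 with all libraries).

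Falls in HT29 were fewer. MER34B-int was at 77.5 and 78.7 CPM under DMSO and 44.4 and 49.5 CPM under VXN, a change of −0.74 ± 0.052 (edgeR adjusted p = 5.88e-20). LTR25 went from 11.5 and 12.5 CPM to 5.42 and 4.71 CPM, a change of −1.24 ± 0.12 (edgeR adjusted p = 9.83e-15). MER57B2 went from 10.7 and 11.1 CPM to 7.03 and 5.37 CPM, in the same libraries in which MER57B1 rose. All 3 kept their fall under every scaling tried. LTR30, below the 4 CPM asked of named families and singled out after its values were seen, had 74 and 87 counts under DMSO and 5 and 10 counts under VXN.

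**Figure D3:**
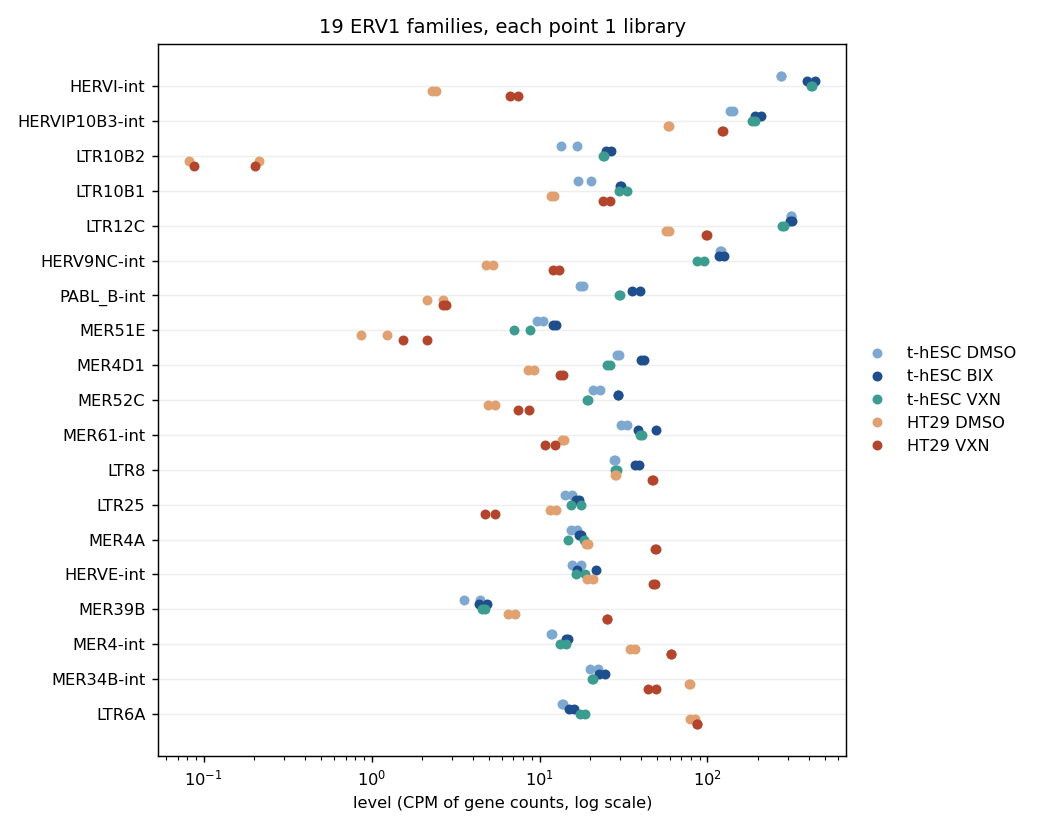
Levels of 19 ERV1 families, 1 row per family, in CPM of gene counts on a log axis. Each point is 1 library, coloured by group. HERVI-int, LTR10B2 and HERV9NC-int show wide gaps between the lines. MER39B, MER4A and HERVE-int stand higher in HT29 under VXN than in every other group.

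The effect of VXN differed between the lines for 83 ERV1 families, with 63 changed more upwards in HT29 and 20 more upwards in t-hESC (edgeR test of the difference, adjusted p under 0.05). This is beside 43% of all tested rows, 23.4% more upwards in HT29 and 19.6% more upwards in t-hESC. DESeq2 called 30 and 14. Scaled by repeat counts, which put the median gene at −0.20, the split was 30 and 33. Of the families called higher under VXN 39 were shared by the lines, which is 68.4% of the 57 in t-hESC and 26.5% of the 147 in HT29. Over all tested rows the shares were 53.7% of 3545 and 23.4% of 8121, and over the other repeat families 87.4% of 238 and 38.4% of 541.

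All 4 families that fell in t-hESC were called higher in HT29, though MER51E not when scaled by repeat counts or without HT29 DMSO replicate 1 or HT29 VXN replicate 2 (edgeR adjusted p of up to 0.351). The difference of the effects was 1.72 ± 0.12 for HERV9NC-int (edgeR adjusted p = 2.66e-19), 0.92 ± 0.054 for LTR12C (7.97e-23), 0.80 ± 0.12 for MER4D1 (4.01e-08) and 1.14 ± 0.29 for MER51E (0.000947). In the other direction HERVIP10FH-int, LTR30, MER61-int and PABL_B were called higher in t-hESC and lower in HT29. HERVIP10FH-int was at 8.07 and 5.98 CPM in t-hESC under DMSO and 12.6 and 13.7 CPM under VXN, and at 12.1 and 12.3 CPM in HT29 under DMSO and 10.3 and 8.00 CPM under VXN. Its effects differed by −1.32 ± 0.16 (edgeR adjusted p = 2.47e-10), and its fall in HT29 was not called without HT29 VXN replicate 2 (adjusted p = 0.0847). The falls of MER61-int and PABL_B in HT29 had edgeR adjusted p-values of 0.0299 and 0.0348, and both were lost without HT29 DMSO replicate 1, HT29 DMSO replicate 2 or HT29 VXN replicate 1. The rise of MER61-int in t-hESC was lost when scaled by repeat counts (adjusted p = 0.216).

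**Figure D4:**
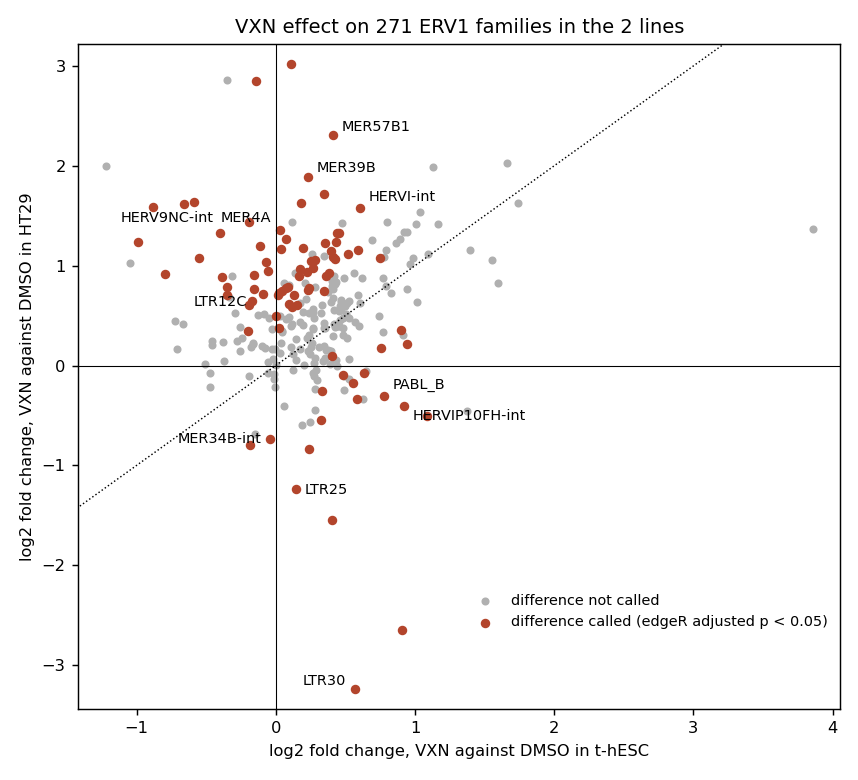
Log2 fold change under VXN in t-hESC (x axis) and in HT29 (y axis), 1 point per tested ERV1 family; the dotted line marks equal change and red points the 83 families whose difference was called. HERV9NC-int and LTR12C lie left of 0 and above it, and HERVIP10FH-int and PABL_B lie to the right and below.

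Under DMSO the lines differed in 189 ERV1 families, 123 higher and 66 lower in HT29, beside 84% of all tested rows called, 39.8% higher and 44.2% lower (edgeR, adjusted p under 0.05). The median was 0.30, with 0.57 for the other repeat families. Scaled by repeat counts, which put the median gene at −0.68, 53 were higher and 107 lower. HERVI with LTR10 was lower in HT29 in 10 of 13 families and higher in 2. LTR10B2 had 7 counts in both HT29 DMSO libraries together, 2 and 5, and 603 counts in the t-hESC DMSO libraries, a level 104 times as high in t-hESC (exact 95% interval 50.3 to 260, for counting error only). LTR12C was 2.44 ± 0.038 and HERV9NC-int 4.56 ± 0.072 log2 units lower in HT29, and HERVI-int, LTR12C, HERV9NC-int and PABL_B-int were lower in HT29 under every scaling tried.

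LTR6A, MER34B-int and MER4-int were families that stood higher in HT29. LTR6A was at 13.7 and 13.6 CPM in t-hESC and 78.4 and 83.9 CPM in HT29 under DMSO, a difference of 2.57 ± 0.063 (edgeR adjusted p = 9.17e-44). MER34B-int was at 22.4 and 20.04 CPM in t-hESC and 77.5 and 78.7 CPM in HT29. MER4-int was at 11.9 and 11.7 CPM in t-hESC and 34.7 and 37.0 CPM in HT29. These 3 were higher in HT29 under every scaling tried. Under VXN 146 families were higher and 58 lower in HT29, beside 86.2% of all tested rows called, 42.2% higher and 44% lower, and 62 were higher and 115 lower when scaled by repeat counts, which put the median gene at −0.95.

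Some human genes are single ERV1 copies whose envelope protein is still encoded. Of 7 such genes ERV3-1, ERVMER34-1 and ERVH48-1, which encodes the envelope-derived protein suppressyn, could be tested. ERVW-1 (syncytin-1), ERVFRD-1 (syncytin-2), ERVV-1 and ERVV-2 had at most 0.101 CPM in any library, below the limit of 3 counts. Coordinates are those of RefSeq on GRCh38.p14: ERV3-1 lies at chr7:64990356-65006687 and shares its span with ERV3-1-ZNF117 and in part with ZNF117, ERVMER34-1 lies at chr4:52742553-52751425, and ERVH48-1 at chr21:42916803-42925630. The 300 bases around the start of the first pair, 250 before and 50 after it, are shown. They were chosen because these genes changed in HT29 in the same direction as the internal families HERV3-int and MER34B-int. The strand is minus and the letters are 5′ to 3′, from RefSeq on GRCh38.p14, at chr7:65006638-65006937 for ERV3-1 and chr4:52751376-52751675 for ERVMER34-1, with CCAAT, the box bound by NF-Y, in capitals.
ERV3-1: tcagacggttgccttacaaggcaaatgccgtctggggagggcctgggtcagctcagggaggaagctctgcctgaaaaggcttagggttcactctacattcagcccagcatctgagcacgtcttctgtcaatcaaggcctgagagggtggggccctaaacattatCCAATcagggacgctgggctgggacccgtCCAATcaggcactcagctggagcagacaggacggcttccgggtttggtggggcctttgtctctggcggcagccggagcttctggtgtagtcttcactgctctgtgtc
ERVMER34-1: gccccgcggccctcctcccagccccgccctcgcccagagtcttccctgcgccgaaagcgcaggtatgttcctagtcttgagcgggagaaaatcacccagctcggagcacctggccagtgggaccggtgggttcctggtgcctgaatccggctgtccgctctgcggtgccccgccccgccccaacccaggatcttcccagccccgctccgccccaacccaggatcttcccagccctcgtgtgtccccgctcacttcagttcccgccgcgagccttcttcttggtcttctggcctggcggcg
Both strands were searched for CCAAT, for the AP-1 motif TGANTCA and for the GAS motif TTCNNNGAA. ERV3-1 had 2 matches to CCAAT and none to the other motifs, and ERVMER34-1 had none of them in this window. Of 35116 promoters of this length in RefSeq 34.6% held CCAAT, 7.71% TGANTCA and 7.66% TTCNNNGAA.

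ERV3-1 was at 4.34 and 3.34 CPM in t-hESC under DMSO, 3.97 and 3.52 CPM under BIX and 3.46 and 3.89 CPM under VXN, and at 1.81 and 1.79 CPM in HT29 under DMSO and 4.72 and 4.81 CPM under VXN. It rose in HT29 by 1.40 ± 0.19 (edgeR adjusted p = 1.28e-09), and its t-hESC groups overlapped. HERV3-int, the internal family it belongs to, went from 6.59 and 7.38 CPM to 17.5 and 17.4 CPM in HT29, a rise of 1.32 ± 0.10 (edgeR adjusted p = 1.40e-17). ERVMER34-1 was at 17.2 and 14.6 CPM in t-hESC under DMSO and at 5.43 and 5.16 CPM in HT29, where VXN left 2.93 and 3.19 CPM, a change of −0.80 ± 0.16 (edgeR adjusted p = 9.96e-06). MER34B-int fell in the same libraries, the only family of the MER34 list called lower there, while 6 of its 9 tested families rose. ERVMER34-1 was lower and MER34B-int higher in HT29 than in t-hESC, so gene and family did not follow each other between the lines. The same held for ERV3-1, which was lower in HT29 than in t-hESC under DMSO. HERV3 with LTR4 together summed to 3.13 and 4.85 CPM in t-hESC under DMSO, below HERV3-int alone in HT29. ERVH48-1 was at 8.62 and 8.61 CPM in t-hESC under DMSO, 12 and 13.9 CPM under BIX and 11.8 and 11.7 CPM under VXN, with rises of 0.59 ± 0.12 and 0.44 ± 0.12 (edgeR adjusted p = 8.63e-05 and 0.00213). In HT29 it was at 0 and 0 CPM under DMSO and 0.131 and 0.101 CPM under VXN, at or below the limit of 3 counts, whereas HERVH48-int was at 5.24 to 6.34 CPM in the 4 HT29 libraries. The sources do not say whether a read was counted both for a gene and for its family.

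**Figure D5:**
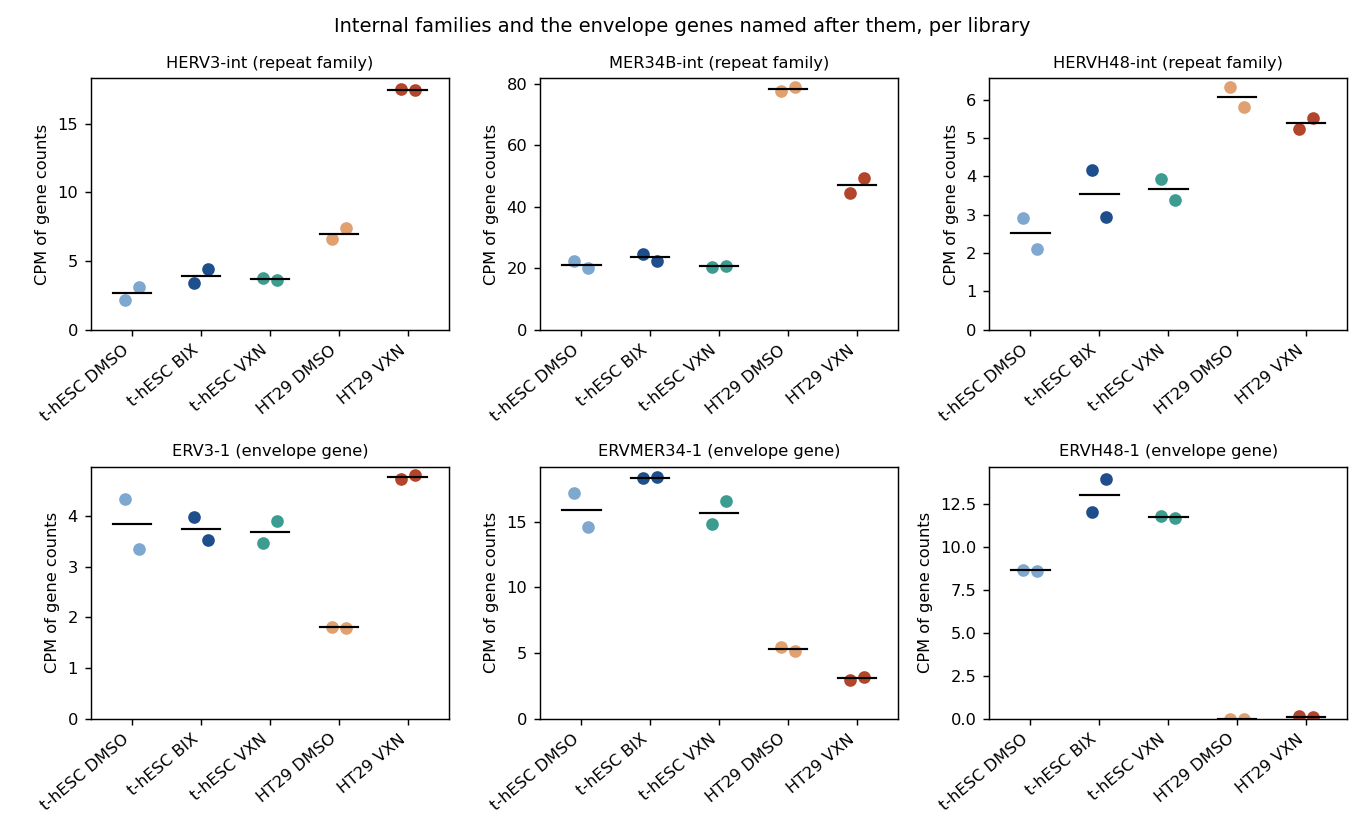
Levels in CPM of gene counts, on linear axes from 0, of 3 internal ERV1 families (top) and the envelope genes named after them (bottom), 1 point per library with the mean of 2 as a line. HERV3-int and ERV3-1 stood higher, and MER34B-int and ERVMER34-1 lower, in HT29 under VXN than under DMSO. ERV3-1 and ERVMER34-1 stood lower in HT29 than in t-hESC under DMSO, while HERV3-int and MER34B-int stood higher.

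The genes of the silencing machinery were described as a list of 25, of which 24 were tested. BIX in t-hESC left 4 of them higher and 10 lower, and VXN in t-hESC 1 higher and 14 lower (edgeR, adjusted p under 0.05). VXN in HT29 left 4 higher and 18 lower. Over all tested rows 11.7% were higher and 11.7% lower under BIX. The shares were 15.1% higher and 14% lower under VXN in t-hESC, and 34.5% higher and 26% lower in HT29. TRIM28, the corepressor of KRAB zinc finger proteins, was at 501 and 486 CPM in HT29 under DMSO and 427 and 415 CPM under VXN, and SETDB1 was at 49.2 and 47.9 CPM and 56.5 and 59.0 CPM. The groups of both did not overlap, as in 17997 of all 23511 tested rows, with TRIM28 lower and SETDB1 higher. UHRF1, which guides DNA methylation to new DNA strands, went from 90.4 and 93.9 CPM to 16.0 and 16.1 CPM in HT29, and in t-hESC from 74.0 and 73.5 CPM to 60.2 and 53.2 CPM under BIX and 46.1 and 45.7 CPM under VXN. The part of these genes in the ERV1 changes was not tested.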

How the data were processed

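RNA-seq libraries were made with a TruSeq RNA v2 kit, per the labels' protocols, a kit that does not mark strand. Tools named in the submitters' processing notes are STAR, DESeq2 1.34.0, FastQC 0.11.9 and fastp 0.20.1, with hg38 and GRCh38 as builds. The counting program, the repeat annotation and the treatment of reads that map to many places are not given in these sources, and the last bears directly on repeat families. The deposited table holds raw counts for 60651 genes and 1181 repeat families, and 4 of its columns that match no sample were not used. Of the log2 fold changes, standard errors and adjusted p-values in comparison tables deposited by the authors, only calls and directions are given.

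The count model was that of edgeR 4.0.16 (R 4.3.3), with library sizes and TMM factors from gene rows, filterByExpr with a minimum count of 10, and the quasi-likelihood F test over all 10 libraries in 5 groups, with 5 residual and 54.5 prior degrees of freedom. P-values were Benjamini-Hochberg adjusted over all 23511 tested rows, with a threshold of 0.05, and errors are standard errors of a log2 fold change. Such p-values reflect the spread among these libraries alone. The scripts were tested on simulated data. Replicates correlated at 0.997 to 0.999 on log2 CPM, and chi-square per degree of freedom was 1.09 to 1.34 over ERV1 families. Alternatives were other size factors, scaling by repeat counts, DESeq2 1.42.0, other count filters, only the groups compared, a replicate block, and each library left out.

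The members, lists and tests were chosen with earlier results of these data known. Named families are, per comparison, the 10 highest and the 10 lowest among called ones with at least 4 CPM and no overlap between groups, the 10 with the highest mean CPM and up to 4 of each sub-family list. Not all of these are described, and LTR30 and the genes lie outside the rule. Sequences of repeat families were not analysed here. Some items are not reported here.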

Additional observations from a re-analysis of the deposited data

Results flagged for a closer look

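Each of the 20 families given here has an effect of VXN that differs between HT29 and t-hESC by the edgeR test of the difference itself, at an adjusted p under 0.05. They are the 10 with the highest and the 10 with the lowest difference among called families with at least 4 CPM, and values are the log2 fold change in HT29 minus that in t-hESC.

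Effects more upwards in HT29 differed by 1.90 for MER57B1, 1.72 for HERV9NC-int, 1.66 for MER39B, 1.44 for MER61E, 1.33 for MER4A, 1.19 for HERVE-int, 1.14 for MER51E, 1.12 for MER4A1, 1.10 for LTR12 and 1.07 for LTR12D. HERV9NC-int and MER51E fell in t-hESC, MER57B1, MER39B, MER61E, MER4A, HERVE-int, MER4A1, LTR12 and LTR12D were not called there, and all 10 were called higher in HT29.

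Effects more upwards in t-hESC differed by −0.61 for MER57B2, −0.70 for MER34B-int, −0.71 for MER51B, −0.73 for HERVH48-int, −0.73 for HERVS71-int, −0.92 for LTR43, −1.08 for MER57F, −1.08 for PABL_B, −1.32 for HERVIP10FH-int and −1.38 for LTR25. PABL_B and HERVIP10FH-int were called higher in t-hESC and lower in HT29. LTR25, MER57F, MER57B2, MER34B-int and LTR43 were called lower in HT29 alone, and MER51B, HERVH48-int and HERVS71-int higher in t-hESC alone. The differences of MER51B, HERVH48-int and HERVS71-int were lost with DESeq2 and without at least 2 of the single libraries, and that of LTR43 without t-hESC DMSO replicate 2 (adjusted p = 0.0582).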

How the results depend on the processing

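Scaled by repeat counts, 40 ERV1 families were called under BIX (32 higher and 8 lower), and DESeq2 called 39 under BIX, 30 under VXN in t-hESC and 44 in the difference between the lines. Counts of calls under the other size factors, count filters and fits stayed within 1.5 times the values reported. Leaving out 1 library at a time gave 45 to 71 families for BIX, 40 to 64 for VXN in t-hESC, 134 to 163 for VXN in HT29, 17 to 25 for VXN against BIX, 59 to 82 for the difference, 155 to 188 for the lines under DMSO and 187 to 206 under VXN; the counts for BIX and for VXN in t-hESC were lowest without t-hESC DMSO replicate 2. The mean summed level with size factors of the DESeq2 type was 2002 CPM in t-hESC under DMSO, 2362 CPM in t-hESC under VXN and 2088 CPM in HT29 under VXN, and with upper-quartile factors 2063, 2391 and 2049 CPM in the same groups and 1431 CPM in HT29 under DMSO. Replicate numbers are shared by the groups, and deviations of same-numbered libraries correlated at −0.036 to 0.011 over 10 pairs of groups. No pairing by number was seen, but counting error also lowers such correlations, so pairing is not excluded. With the replicate block 70 families were called under BIX, 61 under VXN in t-hESC, 162 under VXN in HT29, 22 for VXN against BIX, 83 for the difference, 186 for the lines under DMSO and 203 under VXN. Of 332 calls of named families 212 were kept in every setting and 120 were lost or reversed in at least 1. Over all named families, including those not called in the values reported, a change of direction with a call in at least 1 of the fits compared arose only when scaled by repeat counts. There the log2 change was −0.21 for HERV9NC-int under BIX, −0.19 for LTR8 under VXN in t-hESC, and, under VXN in HT29, −0.40 for LTR6A, −0.11 for LTR78, −0.10 for HERV17-int, −0.12 for MER34A, −0.062 for MER50, −0.12 for MER51A and −0.020 for PRIMA41-int. Between the lines under DMSO it was −0.52 for LTR8, −0.19 for LTR78, −0.32 for LTR17 and −0.13 for MER52D, and under VXN −0.10 for LTR8, −0.50 for LTR78, −0.28 for LTR2B, −0.27 for HERVH48-int, −0.14 for MER41A, −0.21 for MER41B, −0.43 for MER52A, −0.29 for MER52D and −0.31 for PRIMA4-int. That scale is set by all repeat families, which were higher in the treated libraries and in HT29.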
